A study of Mus musculus with 6 samples.

Results

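A group of 7 genes counted in the mouse retina is described here, each a copy of another gene: Rpl34-ps1, Gm11942, Gm13410, Rbpj-ps3, Gm12666, Gm9008 and Gm26825. These 7 of the 55376 genes in the deposited count table were chosen by their counts, near 0 in wild-type retinas and above 0 in retinas of Wfs1 mutant mice. In replicate 2 of the mutant, 2 of the 7 had no count. The contrast between the genotypes therefore picked the 7 genes, and their genotype values are given as a description, with no test. Whole retinas of 3 WT mice and 3 Wfs1-KO mice (genotype Wfs1-/-, a targeted allele that removes the last coding exon) were taken at 240 days after birth and measured by RNA-seq. The labels give C57x129 as the strain of all 6 samples, while the methods of the study name C57BL/6J. The 3 retinas of a genotype came from different mice.

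A retrocopy arises when a messenger RNA is copied back into DNA and inserted elsewhere in the genome. It lacks the introns of its parent gene, usually lacks the parent's promoter, and is called a processed pseudogene when it is thought to make no protein. Copies that keep an open reading frame may be annotated as protein coding. Because a young copy differs from its parent at few bases, a short sequencing read from one can align to the other, and counts of copy and parent are then uncertain. Wfs1 encodes wolframin, a membrane protein of the endoplasmic reticulum.

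Every one of the 7 genes aligned to the transcript of a protein-coding gene over at least 95.8% of its exon bases. In GENCODE M21 on the mm10 build, 4 of them are processed pseudogenes, 2 are protein coding and 1 is a lincRNA. Rpl34-ps1 (chr6:71124610-71124963, plus strand, 354 bases) was 99.4% identical to Rpl34, a protein of the large ribosomal subunit. Gm11942 (chr4:32964888-32965232, plus strand, 345 bases) was 97.4% identical to Rplp1, an acidic protein of the ribosomal stalk. Its best coding match was Gm10073 at 97.7%, itself a gene of 1 exon without an established name, and the next, Rplp1 with 3 exons, was taken as the parent. Gm13410 (chr2:24178834-24180317, plus strand, 1415 exon bases) was the least similar, with 92.8% identity to Ddx6, an RNA helicase of mRNA decay and storage. Rbpj-ps3 (chr6:46529354-46530794, minus strand, 1441 bases) was 99.7% identical to Rbpj, the DNA-binding effector of Notch signalling.

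Gm12666 (chr4:92190744-92191749, minus strand, 764 exon bases in 4 annotated exons) is annotated as coding and was 98.4% identical to Larp7, which binds the 7SK small nuclear RNA. Gm9008 (chr6:76495432-76497784, minus strand, 2353 bases) is also annotated as coding and was 99.1% identical to Rnf26, a RING-finger ubiquitin ligase. The matched Rnf26 transcript has 1 exon, as Gm9008 does, so missing introns do not tell which of the pair is the copy. The lincRNA Gm26825 (chr5:5781530-5783636, plus strand, 2026 exon bases) was 99.6% identical to Hspa8, the constitutive Hsc70 chaperone, in antisense orientation. Of the 7 parents, 4 lie on chromosome 9 (Rplp1, Ddx6, Rnf26 and Hspa8), 2 on chromosome 3 (Rpl34 and Larp7) and 1 on chromosome 5 (Rbpj), whereas 5.75% of the tested genes lie on chromosome 9 and 5.05% on chromosome 3. The copies themselves lie on chromosomes 2, 4, 5 and 6, with none on the chromosome of its parent.

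Stretches of 5 copies are printed below each with the matching stretch of its parent, to show where the pairs differ. Each is the ungapped stretch of its length, within the parent's coding part, with the most single-base differences. Capitals mark the bases that differ. All are read along the strand of the copy, 5′ to 3′, from GENCODE M21 transcripts. Rpl34-ps1 (chr6:71124724-71124943, plus strand) differed from Rpl34 at 2 bases in all, T132C and C318G, with the parent's base first and positions counted from 1 at the 5′ end of the copy.
Rpl34-ps1: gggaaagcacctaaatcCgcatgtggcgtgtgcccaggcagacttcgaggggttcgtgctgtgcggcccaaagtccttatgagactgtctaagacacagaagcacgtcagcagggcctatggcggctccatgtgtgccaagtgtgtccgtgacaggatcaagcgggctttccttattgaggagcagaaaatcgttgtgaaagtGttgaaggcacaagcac
Rpl34: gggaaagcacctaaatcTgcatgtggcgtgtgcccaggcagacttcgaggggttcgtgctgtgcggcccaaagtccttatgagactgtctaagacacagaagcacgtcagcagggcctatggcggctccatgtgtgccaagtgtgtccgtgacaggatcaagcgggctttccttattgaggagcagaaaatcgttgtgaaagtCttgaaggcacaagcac
The window of Rbpj-ps3 (chr6:46529707-46529866, minus strand) holds 3 of its 4 differences from Rbpj, C949A, G952A and A1088C, and the fourth is T310C.
Rbpj-ps3: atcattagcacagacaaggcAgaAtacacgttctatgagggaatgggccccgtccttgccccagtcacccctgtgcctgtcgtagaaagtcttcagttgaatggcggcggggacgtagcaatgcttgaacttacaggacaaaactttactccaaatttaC
Rbpj: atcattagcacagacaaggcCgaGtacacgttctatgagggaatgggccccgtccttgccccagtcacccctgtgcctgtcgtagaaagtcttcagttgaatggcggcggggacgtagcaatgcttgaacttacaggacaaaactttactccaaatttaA
Gm9008 (chr6:76497454-76497573, minus strand) had 17 single-base differences from Rnf26, of which 2 lie in the window shown, and 1 gap in the alignment.
Gm9008: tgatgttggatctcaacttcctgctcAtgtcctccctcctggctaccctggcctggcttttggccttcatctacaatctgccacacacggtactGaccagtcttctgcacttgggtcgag
Rnf26: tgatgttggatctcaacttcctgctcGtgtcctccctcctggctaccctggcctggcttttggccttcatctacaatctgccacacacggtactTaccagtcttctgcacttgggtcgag
Gm13410 (chr2:24179511-24179630, plus strand) carried 63 single-base differences from Ddx6, the most of the 7 copies, and 15 of them lie in the window. Its alignment also had 7 gaps.
Gm13410: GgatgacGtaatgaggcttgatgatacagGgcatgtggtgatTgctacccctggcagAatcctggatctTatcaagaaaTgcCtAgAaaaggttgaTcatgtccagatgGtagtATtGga
Ddx6: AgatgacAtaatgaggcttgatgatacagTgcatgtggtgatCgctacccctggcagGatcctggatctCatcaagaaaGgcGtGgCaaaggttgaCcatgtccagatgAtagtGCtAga
For Gm26825 (chr5:5782056-5782175, plus strand) the stretch of Hspa8 is shown as its reverse complement, because the copy is annotated on the opposite strand. Of its 5 single-base differences 1, G587A, lies in the window, and the alignment also has 1 gap.
Gm26825: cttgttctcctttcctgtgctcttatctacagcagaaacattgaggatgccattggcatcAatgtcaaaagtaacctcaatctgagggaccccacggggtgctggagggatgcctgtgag
Hspa8: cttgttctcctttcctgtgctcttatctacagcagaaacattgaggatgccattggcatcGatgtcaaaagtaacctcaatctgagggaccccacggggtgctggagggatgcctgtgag

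How far a read could tell a copy from other transcripts was measured by windows of a given length. The share of the copy's windows that occur in no annotated transcript of another gene, on either strand, was taken. Genes that overlap a copy were left out of this comparison. Among them, Gm15459 covers 1860 of the 2026 exon bases of Gm26825, and Gm44166 covers 515 of the 2353 of Gm9008. The shares of Gm26825 and Gm9008 are therefore upper limits. With windows of 100 bases, 1.57% of those of Rpl34-ps1 were found nowhere else, which is 4 of 255. Of its 255 windows, 118 were identical to Rpl34 and most of the rest to other transcripts. For Gm26825 the share was 21.3% and for Rbpj-ps3 22.6%. The share was larger in the others, at 68.7% for Gm9008, 74.1% for Gm12666, 89.6% for Gm13410 and 93.9% for Gm11942. With 50 bases Rpl34-ps1 had no window of its own, and with 150 bases it had 40.5%. The genome sequence outside annotated transcripts was not compared here.

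**Figure D1:**
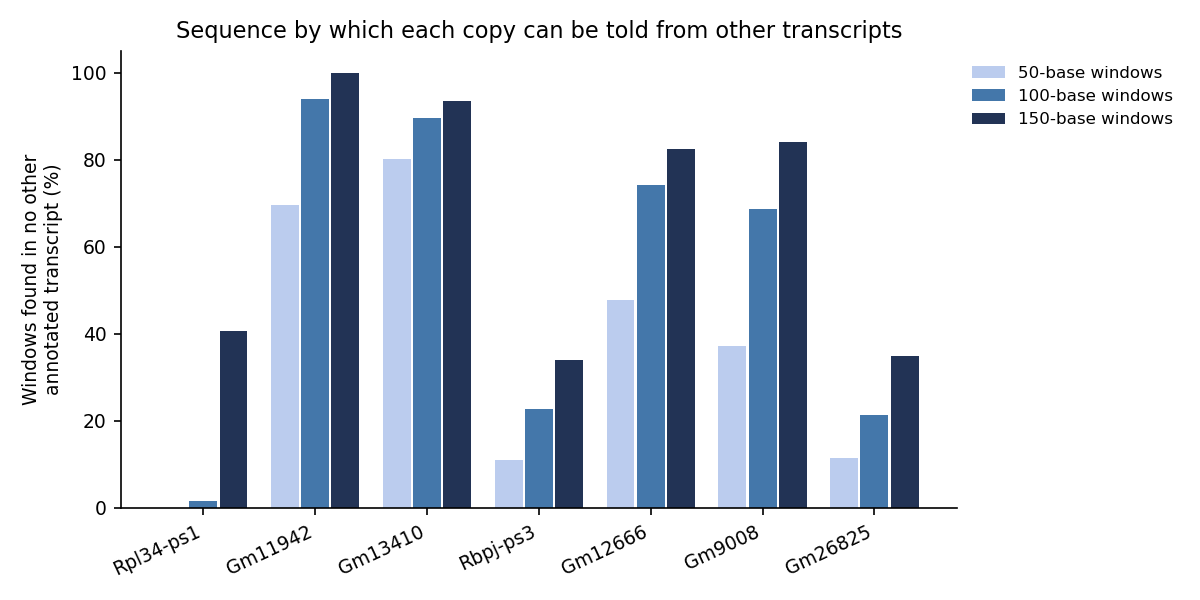
Percentage of 50-, 100- and 150-base windows of each copy (x axis) that occur in no annotated transcript of another gene (y axis, %). Genes that overlap the copy were left out. Bars are single values from the reference sequence; at 100 bases Rpl34-ps1 stands at 1.57% and Gm11942 at 93.9%.

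Total counts ranged from 17916885 to 101334381 per retina. Wfs1 itself had 64.9, 61.3 and 69.9 CPM (counts relative to library size, scaled by TMM factors and multiplied by 1e+06) in WT retinas and 9.62, 0.898 and 11.5 CPM in Wfs1-KO replicates 1, 2 and 3. All 14 retinal markers were counted in every retina, with a sum of 39678 CPM in Wfs1-KO replicate 2 and of 51046 to 57545 CPM in the other 5. Wfs1-KO replicate 2 stood apart, with a mean correlation of log2 CPM across genes to the other retinas of 0.937, against 0.978 to 0.981 for each of the other 5. Its summed markers of blood were 388 CPM against 11.5 to 33.5 in the other 5 retinas, those of leukocytes 101 against 3.58 to 9.62, and those of the pigment epithelium 256 against 22.8 to 81.5. Summed lens markers reached 1.12 CPM at most, and summed myelin markers were 35.6 to 42.9 CPM in WT and 44.7 to 49.8 CPM in Wfs1-KO retinas, without overlap. Their part in the results was not tested. Values without Wfs1-KO replicate 2 are given beside those results that it turned or moved most. In bulk tissue, a change in the number of cells of a type and a change in RNA per cell cannot be told apart.

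The copies of ribosomal protein genes reached the highest levels. Rpl34-ps1 had 5, 4 and 4 counts in WT replicates 1, 2 and 3 and 1323, 2150 and 610 counts in the Wfs1-KO replicates. These are 0.0752, 0.0840 and 0.227 CPM in WT and 12.8, 50.8 and 13.8 CPM in Wfs1-KO, so each mutant retina was far above each WT retina. The ratio of the means was 201, and 104 without Wfs1-KO replicate 2. Gm11942 had 16, 6 and 2 counts in WT and 954, 2347 and 435 counts in Wfs1-KO retinas. On the CPM scale WT lay between 0.113 and 0.241 and Wfs1-KO at 9.25, 55.5 and 9.87. The ratio of the means was 155, and 59.7 without replicate 2. In both genes replicates 1 and 3 of the mutant lay within 1.08-fold of each other while replicate 2 was 3.81 times their mean for Rpl34-ps1 and 5.80 times for Gm11942. The markers of blood, leukocytes and pigment epithelium were highest in that same retina, and their part in these levels was not tested.

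The copies annotated as protein coding had no count in WT. Gm9008 had 0 counts in all 3 WT retinas and 366, 269 and 173 counts, or 3.55, 6.36 and 3.93 CPM, in Wfs1-KO replicates 1, 2 and 3. All mutant retinas were thus on one side. Against the limit that 3 counts over the WT group set, 0.0228 CPM, the mutant mean of 4.61 ± 1.53 CPM (SD, n = 3) was at least 202-fold higher, and at least 164-fold without replicate 2. Gm12666 also had 0 counts in every WT retina, and 110, 224 and 34 counts, or 1.07, 5.30 and 0.771 CPM, in Wfs1-KO retinas. The mean was at least 104-fold higher than the same limit, and at least 40.4-fold without replicate 2, which held 5.76 times the mean of the other two.

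Copies of Rbpj and Ddx6 were counted in 2 mutant retinas and not in the third. Rbpj-ps3 had 4, 2 and 2 counts in WT and 166, 0 and 144 counts in Wfs1-KO replicates 1, 2 and 3, which are 0.0602, 0.0420 and 0.113 CPM against 1.61, 0 and 3.27 CPM. The genotypes overlapped because of replicate 2, and without it the ratio of the means was 33.9 instead of 22.6. Gm13410 had 0 counts in all WT retinas and 155, 0 and 78 counts, or 1.50, 0 and 1.77 CPM, in mutant retinas. Its mutant mean was at least 47.9-fold above the WT limit, and at least 71.8-fold without replicate 2. A count of 0 in that retina allows up to 0.0709 CPM, below the 1.50 CPM of Gm13410 in replicate 1. Rbpj-ps3 and Gm13410 thus split the mutant retinas in a way that the other 5 copies did not, and limits from counts of 0 cover counting error only.

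Gm26825, the antisense copy of Hspa8, was the most even of the 7. It had 2, 3 and 0 counts in WT and 87, 38 and 35 counts in Wfs1-KO retinas. The mutant values of 0.844, 0.898 and 0.794 CPM lay close together, at 0.845 ± 0.0521 CPM (SD, n = 3) against 0.0310 ± 0.0315 CPM in WT, a ratio of 27.2. Replicate 2 did not stand apart here. Of the exon bases of Gm26825, 1860 of 2026 are also covered on the other strand by Gm15459, a pseudogene with 0, 1 and 0 counts in WT and 3, 0 and 4 counts in Wfs1-KO retinas. Whether counting used strand is not given in the sources used here, so reads of these 2 genes and of Hspa8 cannot be told apart by orientation.

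**Figure D2:**
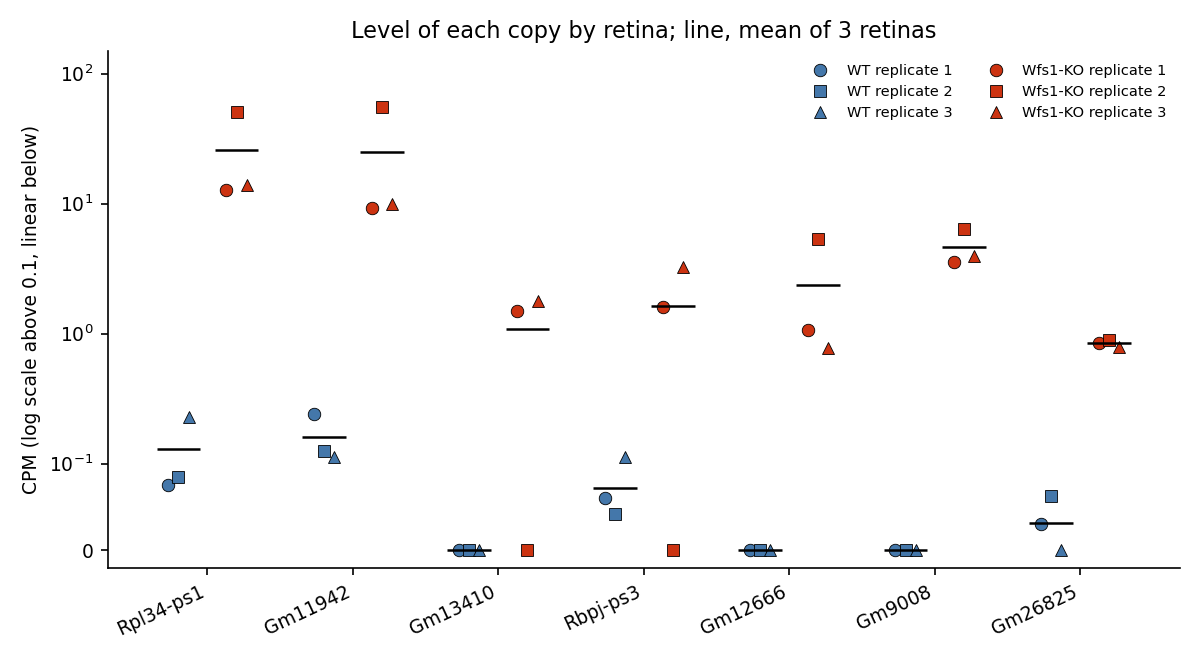
CPM of the 7 copies (x axis) in each of the 3 WT (blue) and 3 Wfs1-KO (red) retinas, on a y axis that is logarithmic above 0.1 and linear below. Horizontal lines are the means of 3 retinas; all WT points lie at or under 0.241 CPM, and Wfs1-KO replicate 2 is at 0 for Gm13410 and Rbpj-ps3.

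Per kilobase of exon, the copies of ribosomal protein genes stood above the other 5. These values use the full exon length of each copy. They are not corrected for the share of 100-base windows found in no other transcript, which ran from 1.57% for Rpl34-ps1 to 93.9% for Gm11942. The order of the copies is therefore one of counts and not of RNA levels. Rpl34-ps1 averaged 73.0 and Gm11942 72.1 CPM per kb in Wfs1-KO retinas, and their ranges over retinas overlapped (36.2 to 144 and 26.8 to 161). Gm12666 followed with 3.11 CPM per kb and Gm9008 with 1.96, again with overlapping ranges. Rbpj-ps3 had 1.13, Gm13410 0.771 and Gm26825 0.417 CPM per kb, and their ranges also overlapped. Rbpj-ps3, at 0 to 2.27 CPM per kb, overlapped Gm9008 and Gm12666 too, and in replicate 3 it was above both (1.67 and 1.01). Gm13410, at 0 to 1.25 CPM per kb, overlapped Gm12666 as well and was above it in replicate 3. In 5 of the 7 genes each Wfs1-KO retina lay above each WT retina, the pattern by which they were selected, and 5.01% of the 18547 tested genes had it. The same 5 passed the filter on low counts, while Gm13410 and Rbpj-ps3 did not.

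A stricter search of the whole table asked which genes were held by one genotype, with at least 0.5 CPM in each of its retinas and a lowest value at least 10 times that of any retina of the other. It found 5 genes held by Wfs1-KO, 0.0152% of the 32799 genes with any count, and these were 5 of the 7 copies: Rpl34-ps1, Gm11942, Gm12666, Gm9008 and Gm26825. This uses the same contrast as the choice of the copies and is no separate evidence. Without Wfs1-KO replicate 2 the search found 7 genes, all 7 of the copies. With a lowest value of 0.2 CPM, Gm47775 joined the 5 on all retinas, and with a ratio of 5 in place of 10, Iqcm and Tecta joined. In the other direction it also found 5 genes (0.0152%), none of them a copy described here: BC065403, 9230112J17Rik and Gm37150 on chromosome 9, the immunoglobulin constant gene Ighg2c on chromosome 12, and the enolase gene Eno1b on chromosome 18. BC065403 had 127, 87 and 39 counts in WT and 0, 1 and 0 in Wfs1-KO retinas. Eno1b had 18271, 9459 and 3894 counts in WT and 178, 34 and 81 in Wfs1-KO retinas, and it was 1 of the 2 genes past an adjusted p of 0.05 in edgeR's test.

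The parent genes were not used to choose the copies, although their counts are not independent of them where a read can align to either. To the parents edgeR's quasi-likelihood test was applied, with Benjamini-Hochberg adjustment over all 18547 tested genes. The standard error (SE) given with each edgeR log2 fold change was derived from it and the F statistic of the test. The 7 parents and Gm10073 were all tested and none passed an adjusted p of 0.05, where 0.0108% of all tested genes did. At an unadjusted p under 0.05 there were 3 of the 8, all lower in Wfs1-KO, against 2.81% of all genes. Their median log2 fold change was -0.54, against 0.02 over all tested genes. Without Wfs1-KO replicate 2, 3 of the 8 passed, all lower (Rnf26, Rpl34 and Hspa8), where 0.125% of all genes passed. Gm10073 had a log2 fold change of -0.52 (SE 0.70) on all retinas and -1.65 (SE 0.45) without that retina, with an edgeR adjusted p of 0.979 and 0.505.

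Rnf26 was opposite to its copy. It had 93, 54 and 26 counts in WT and 10, 5 and 7 counts in Wfs1-KO retinas, which are 1.40, 1.13 and 1.47 CPM against 0.0970, 0.118 and 0.159 CPM. The groups did not overlap. The log2 fold change was -3.42 (SE 0.44, edgeR adjusted p = 0.212), -3.44 without replicate 2 (SE 0.49, adjusted p = 0.0248), and DESeq2 on all 6 retinas called it (adjusted p = 2.45e-06), as it did 0.15% of the genes it tested. Gm9008 held 0% of the summed counts of copy and parent in each WT retina and 97.3%, 98.2% and 96.1% in the Wfs1-KO retinas. The sum of the pair was 1.34 ± 0.179 CPM in WT and 4.74 ± 1.52 CPM in Wfs1-KO retinas (SD, n = 3 each). Whether reads of Rnf26 and Gm9008 were exchanged or left out in counting was not tested.

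Rpl34 had 118, 121 and 91.0 CPM in WT retinas and 44.6, 123 and 40.4 CPM in Wfs1-KO replicates 1, 2 and 3. Replicate 2 lay above every WT retina and the other two below. The log2 fold change was -0.67 (SE 0.43, edgeR adjusted p = 0.979), and -1.38 without replicate 2 (SE 0.16, adjusted p = 0.00662). Rpl34-ps1 took 0.0639%, 0.0692% and 0.249% of the pair's counts in WT and 22.4%, 29.2% and 25.5% in Wfs1-KO. This share was similar in the 3 mutant retinas even though the CPM of both genes was not. Copy and parent summed to 118, 121 and 91.3 CPM in WT and to 57.4, 174 and 54.2 CPM in Wfs1-KO retinas. Whether reads of one gene were counted on the other, or left out because they fit both, was not tested.

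Hspa8 had 980, 925 and 960 CPM in WT and 488, 782 and 529 CPM in Wfs1-KO retinas, with no overlap. Its log2 fold change was -0.67 (SE 0.22, edgeR adjusted p = 0.979), and -0.92 without replicate 2 (SE 0.12, adjusted p = 0.0152). The mean difference was 355 CPM, against 0.814 CPM by which Gm26825 was higher, and Gm26825 held at most 0.173% of the pair's counts in any retina. Rbpj had 30.4, 39.5 and 41.7 CPM in WT and 30.3, 23.1 and 21.8 CPM in Wfs1-KO retinas, where the nearest values of the genotypes almost met. Its log2 fold change was -0.57 (SE 0.21, edgeR adjusted p = 0.979). Rbpj-ps3 held 0.197%, 0.106% and 0.271% of the pair's counts in WT and 5.04%, 0% and 13.0% in Wfs1-KO retinas. Rbpj was lower in replicate 2, where the copy had no count, as well as in replicate 3, where the copy had its largest share.

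Rplp1, Larp7 and Ddx6 did not pass the test on all 6 retinas or without replicate 2. Rplp1 had 412, 326 and 304 CPM in WT and 388, 1525 and 365 CPM in Wfs1-KO retinas (log2 fold change 1.13, SE 0.55, edgeR adjusted p = 0.979). Without replicate 2 the change was 0.11 (SE 0.15). Gm11942 held 2.33%, 3.51% and 2.64% of the pair's counts in mutant retinas and at most 0.0584% in WT. Larp7 had 29.9, 30.7 and 27.3 CPM in WT and 23.8, 91.9 and 26.5 CPM in Wfs1-KO. Its log2 fold change of 0.69 (SE 0.51, edgeR adjusted p = 0.979) turned to -0.23 (SE 0.14) without replicate 2. Gm12666 held 4.28%, 5.45% and 2.83% of the pair's counts in the mutant. Rplp1 and Larp7 were both highest in replicate 2, as were Gm11942 and Gm12666. Ddx6 had 260, 366 and 358 CPM in WT and 356, 326 and 403 CPM in Wfs1-KO, a log2 fold change of 0.14 (SE 0.20, edgeR adjusted p = 0.979), and Gm13410 held at most 0.437% of the pair's counts.

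**Figure D3:**
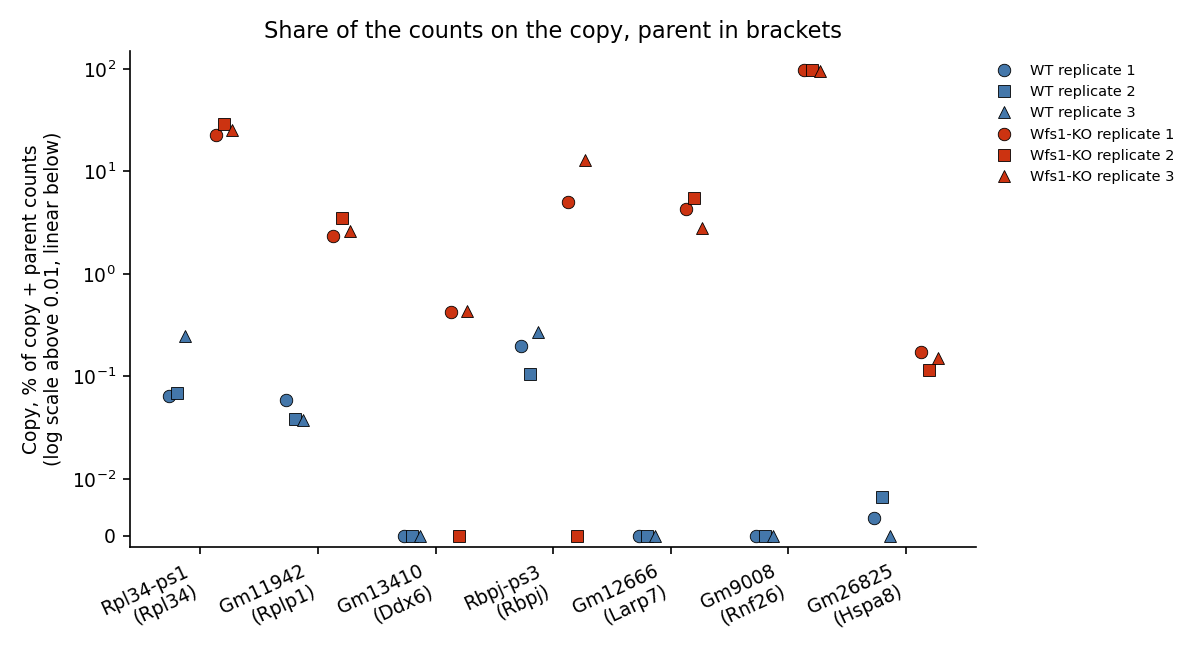
Counts of each copy as a percentage of the counts of copy plus parent (parent in brackets on the x axis) in each WT (blue) and Wfs1-KO (red) retina, on a y axis that is logarithmic above 0.01% and linear below. Gm9008 is at 0% in WT and above 96% in every Wfs1-KO retina, and Gm26825 never exceeds 0.173%.

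**Figure D4:**
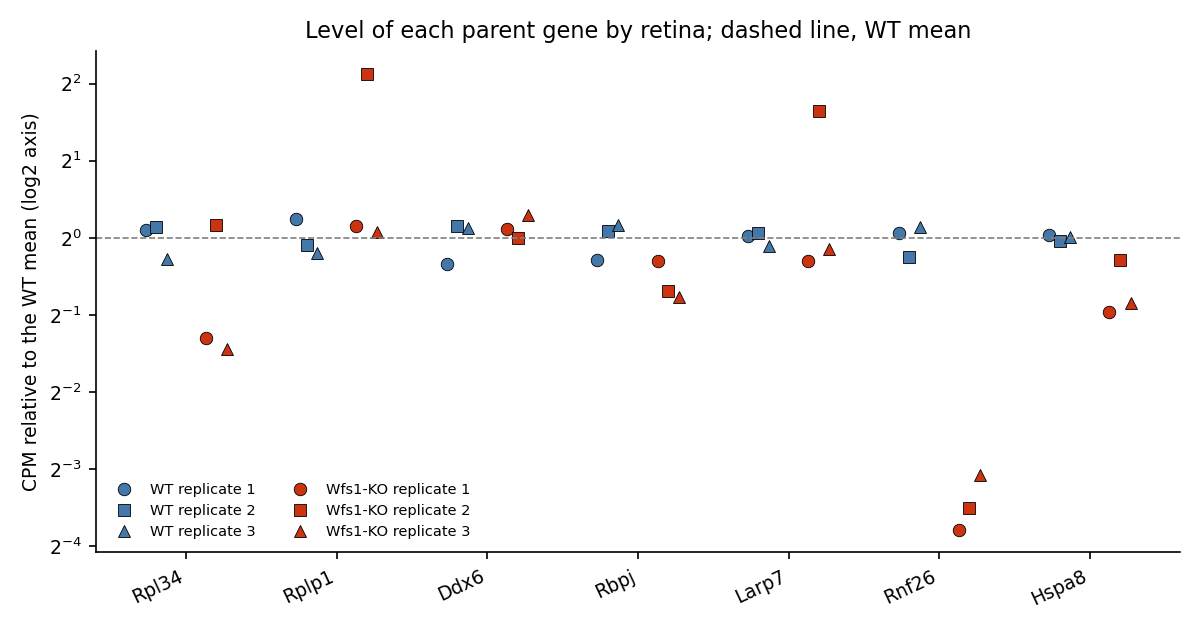
CPM of each parent gene (x axis) relative to its WT mean, on a log2 y axis, in each WT (blue) and Wfs1-KO (red) retina. Rnf26 lies far below the dashed WT mean in all 3 Wfs1-KO retinas, and Rplp1 and Larp7 lie above it in Wfs1-KO replicate 2.

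The same parents have many other annotated copies, most of them at or near 0. A total of 67 further annotated pseudogenes aligned to the parents, among them 24 of Rpl34, 19 of Rplp1 and 19 of Hspa8. Of these, 34 had no count in any retina and 3 had a mean of 10 or more counts. Only 1 of the 67 passed the filter on low counts, Gm8355, a copy of Hspa8 on chromosome 10. It had 120, 48 and 26 counts in WT and 142, 111 and 65 in Wfs1-KO retinas (log2 fold change 0.35, SE 0.41, edgeR adjusted p = 0.979, and -0.02, SE 0.34, without replicate 2). Gm10086, a copy of Rpl34 on chromosome 5, is 98.3% identical to Rpl34-ps1. It had 4, 3 and 0 counts in WT and 20, 74 and 10 in Wfs1-KO retinas, so its highest value too was in replicate 2. Each mutant retina was above each WT retina in CPM, so being near 0 in WT and counted in the mutant was not particular to the 7 copies. Its log2 fold change from DESeq2 was 3.89 (DESeq2 adjusted p = 0.221). Gm13245, a copy of Rplp1 on chromosome 4, had 13, 10 and 0 counts in WT and 29, 2 and 7 in Wfs1-KO retinas. Where 2 copies share sequence, counts on one may come from the other.

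No gene around the copies passed the test. Within 100 kb of the 7 copies lie 32 other genes, of which 10 were tested, none passed and none had an unadjusted p under 0.05, against 2.81% of all tested genes. Their median log2 fold change was 0.17. Within 500 kb, 43 genes were tested and again none had an unadjusted p under 0.05. Without Wfs1-KO replicate 2 these counts were 1 of 10 and 2 of 43, where 5.19% of all tested genes had such a p. Rbpj-ps3 lies inside an intron of Cntnap2, which encodes a neurexin-family adhesion protein, on the opposite strand and with no base in its exons. Cntnap2 had 6954, 5841 and 2349 counts in WT and 12586, 6926 and 5589 counts in Wfs1-KO retinas, a log2 fold change of 0.20 (SE 0.19, edgeR adjusted p = 0.979), and 0.05 (SE 0.14) without replicate 2. Gm9008 shares 515 exon bases with Gm44166 on the other strand, a gene listed with 0 counts in every retina.

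Of the annotated pseudogenes that are not among the 7 copies, the table held 13149, of which 738 were tested and none passed edgeR's adjusted threshold. At an unadjusted p under 0.05 there were 26, or 3.52%, of which 21 were higher and 5 lower in Wfs1-KO retinas, against 2.81% of all genes. Their median log2 fold change was 0.18. Without Wfs1-KO replicate 2 there were 69 of 868 (7.95%), 45 higher and 24 lower, against 5.19% of all genes, and the median was 0.01. The smallest p-values among the higher ones belonged to Oaz2-ps on chromosome 3 (log2 fold change 3.62, SE 0.77), Gm15920 on chromosome 5 (5.02, SE 1.27), Gm10080 on chromosome 9 (2.54, SE 0.81), Tma7-ps on chromosome 1 (4.39, SE 1.50) and Gm13259 on chromosome 4 (1.38, SE 0.49). The value of Tma7-ps came from Wfs1-KO replicate 3, with 159 CPM against 2.85 and 5.27 CPM in replicates 1 and 2 and 2.04 to 3.19 CPM in WT. Gm15920 had 3.23, 13.0 and 0.340 CPM in Wfs1-KO replicates 1, 2 and 3, and its log2 fold change was 3.41 without replicate 2. Without that retina Gm10080 had 1.48. Those among the lower ones were Gm9260 and Gm46313 on chromosome 12, Gm7546 on chromosome 7, Gm28802 on chromosome 1 and Gm15953 on chromosome 16, with log2 fold changes from -3.97 to -0.73. The adjusted p of each of these 10 genes was 0.979 from edgeR, and DESeq2 called Oaz2-ps (adjusted p = 0.0173) and Gm15920 (adjusted p = 0.000164).

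Because Rbpj-ps3 copies the Notch effector, the Notch pathway was examined. In this pathway a ligand on one cell releases the intracellular part of Notch in its neighbour, which joins Rbpj on DNA, and in the retina it acts on progenitors and Müller glia. Of 35 listed genes, 34 were tested, none passed, and Rbpj alone had an unadjusted p under 0.05. That is 2.94%, against 2.81% of all tested genes. The median log2 fold change was -0.03, beside 0.02 over all genes. The coactivator gene Maml2 had 0.93 (SE 0.44) and the target gene Hes1 0.86 (SE 0.49), both with an adjusted p of 0.979 from edgeR. Without Wfs1-KO replicate 2, which had 37.4 CPM of Maml2 and 55.4 CPM of Hes1, the values were 0.24 (SE 0.20) and 0.00 (SE 0.18).

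For the large ribosomal subunit, to which Rpl34 and Rplp1 belong, 48 of 51 genes were tested and none passed. Their median log2 fold change was 0.56 and turned to -0.21 without Wfs1-KO replicate 2. In that fit 1 of the 48, Rpl34, passed, where 0.125% of all genes did. There 7 of the 48 (14.6%) had an unadjusted p under 0.05, all lower in Wfs1-KO, against 5.19% of all genes. The smallest unadjusted p-values on all 6 retinas were those of Rplp1, Rpl24 and Rpl34, with log2 fold changes of 1.13, 1.25 and -0.67 and an adjusted p of 0.979 each from edgeR, and of 0.11, 0.16 and -1.38 without replicate 2. The direction of this list therefore rested on 1 retina. The value of Rpl24 on all 6 retinas (SE 0.76) rested on few counts, 16, 18 and 3 in WT and 23, 57 and 18 in Wfs1-KO retinas.

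The genes whose levels over the 6 retinas were most like the mean of the 7 copies were Gm9869, an antisense RNA gene on chromosome 9 (Pearson r = 0.986 of log2 CPM), the cold-inducible RNA-binding protein gene Rbm3 (0.981), Gm34294 (0.978), the intraflagellar transport gene Ift57 (0.976) and Wdr60 (0.975), among 16564 genes. Gm9869 had 83, 88 and 30 counts in WT and 988, 374 and 397 counts in Wfs1-KO retinas. With 6 retinas that fall into 2 genotypes, such values describe the order of the retinas and carry no test.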

How the data were processed

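RNA-seq of 6 whole retinas was analysed. Per the labels and methods, the authors trimmed the reads with Trimmomatic, aligned them to mm10 with STAR and counted them on exons with featureCounts (0.39, 2.5.3a and 1.6.4 in the submitters' processing notes). The handling of multi-mapping reads and strand is not given in the sources used here. The authors deposited raw counts per gene. The table has 8 library columns, of which 2 fit none of the listed samples and were left out. Columns were matched to samples by genotype letter and replicate number alone, so a renumbering of libraries by the authors would go unseen. The members and lists were chosen with earlier results of these data known. The genotype was tested with edgeR 4.0.16 (R 4.3.3, TMM, filterByExpr, quasi-likelihood F-test, Benjamini-Hochberg threshold 0.05), with DESeq2 1.42.0 as an alternative, after a check of the edgeR fit on simulated counts. The simulated counts varied less between retinas than the data and held no outlying retina. Totals per retina were 17916885 to 101334381, and floors were 3 counts. Positions, types and transcripts came from GENCODE M21, to which 98.4% of genes matched by name. Copies were aligned to transcripts with blastn 2.17.0. The parent was the coding gene with the best alignment over at least 50% of the exons, or for Gm11942 the best whose symbol is not a Gm number, chosen after the alignments were seen. Uniqueness was measured against transcripts of genes that do not overlap the copy, where the plan had named the genome. Genes named are the members, parents, neighbours with an unadjusted p under 0.05 (at most 3 per member) or overlapping a member, same-parent copies with a mean of at least 10 counts (at most 5), the 5 pseudogenes with the smallest p in each direction, genes held by one genotype, the 3 Notch and ribosomal genes with the smallest p, and the 5 most alike in log2(CPM + 0.5). Alternatives were RLE scaling, no filter, DESeq2, a replicate block, other window sizes and limits, and leaving out each retina.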

Additional observations from a re-analysis of the deposited data

How the results depend on the processing

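All alternatives named here were planned. The number of genes past the adjusted threshold was 2 of 18547 with edgeR, 9 without a filter on low counts (32799 tested), 49 with DESeq2 (31 higher, 18 lower) and from 0 to 24 when 1 retina was left out. Leaving out Wfs1-KO replicate 2 gave the 24, and leaving out any 1 WT retina gave 0. With 0 called, 314, 303 and 378 genes had an unadjusted p under 0.05 without WT replicates 1, 2 and 3. Parents past the threshold numbered 0, 1 with DESeq2 and 0 to 3 without 1 retina. Annotated pseudogenes numbered 0, and 2 with DESeq2. Large ribosomal subunit genes numbered 0, and 0 to 1 without 1 retina. Neighbours, same-parent copies and Notch genes stayed at 0 under each alternative run. Genes held by Wfs1-KO numbered 5, and 5 to 13 without 1 retina, with 8 without WT replicate 1 and 13 without Wfs1-KO replicate 3. Genes held by WT numbered 5, 8 with a ratio of 5 in place of 10, and 5 to 10 without 1 retina, the 10 being without Wfs1-KO replicate 3. Deviations from the group means correlated at -0.331, -0.174 and 0.171 between retinas with the numbers 1, 2 and 3, so no pairing by replicate number was seen. With 3 retinas per genotype this cannot exclude a pairing or a shared batch. A fit with the replicate number as a block called 1 gene in place of 2 and no parent. Depth limits the copies counted under 100 times in a retina, and the smallest WT library, sets a floor of 0.170 CPM (3 counts, on the TMM scale) for a count of 0.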

Other observations

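Genes around the parents were counted after the data had been seen. Within 1 Mb of the 7 parents, 126 other genes were tested and none passed edgeR's adjusted threshold. At an unadjusted p under 0.05 there were 21, or 16.7%, with 15 higher and 6 lower in Wfs1-KO retinas, against 2.81% of all tested genes, and the median log2 fold change was 0.00. Without Wfs1-KO replicate 2 there were 30 of 138 (21.7%), against 5.19% of all genes, and the balance turned, with 13 higher and 17 lower. That fit and DESeq2 on all 6 retinas each called 2 of these genes. Around Ddx6 there were 12 of 53, around Rnf26 7 of 48, around Hspa8 2 of 13, around Rplp1 2 of 11, around Larp7 2 of 13, around Rpl34 2 of 19 and around Rbpj 1 of 13, and the regions of Ddx6 and Rnf26 overlap. Alpk1, an innate immune kinase gene beside Larp7 on chromosome 3, averaged 1.96 CPM in WT against 6.77 CPM in Wfs1-KO retinas (log2 fold change 1.77, SE 0.35, edgeR adjusted p = 0.974, 0.00872 without Wfs1-KO replicate 2, DESeq2 adjusted p = 0.00424). Mfrp, a frizzled-related membrane protein gene near Rnf26 on chromosome 9, averaged 4.33 CPM in WT against 1.33 CPM in Wfs1-KO retinas (log2 fold change -1.69, SE 0.37, edgeR adjusted p = 0.979, 0.213 without Wfs1-KO replicate 2, DESeq2 adjusted p = 0.0149). Fxyd6, a regulator of the sodium pump on chromosome 9, had 73.8 and 41.9 CPM (log2 fold change -0.82, SE 0.20, edgeR adjusted p = 0.979, and 0.0336 without Wfs1-KO replicate 2). By chromosome, the share of tested genes with an unadjusted p under 0.05 was 5.72% on chromosome 9 (61 of 1067), 3.42% on chromosome 3 and 2.66% on chromosome 5, and it ranged from 1.33% on chromosome 19 to 4.09% on chromosome 12 among the other autosomes and the X chromosome. The cause was not tested.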
